A study of Mus musculus with 4 samples.

Results

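Extracellular vesicles (EVs) released by primary hepatocytes of wild-type mice on a high-fat diet (HFD-EV) were set against those of chow-fed mice with Ggpps deleted in the liver (Chow-LKO EV), a pair that differs in both diet and genotype. These are 2 of its 4 Agilent mouse miRNA arrays (1 colour, Cy3), which carry probes for 1881 miRNAs. All mice were male, of 20 weeks and of the strain given as B6, the diet was given for 12 weeks, and the hepatocytes were cultured for 48 h before EVs were collected. The other 2 arrays held EVs of chow-fed wild-type mice (Chow-EV) and of knockout mice on the high-fat diet (HFD-LKO EV), and their values are given beside the pair, since the diet and the Ggpps deletion cannot be told apart in that ratio alone. Ggpps was deleted with Mx1-Cre, which was induced by injection of polyinosinic-polycytidylic acid and is active in interferon-responsive cells, blood cells included. The methods do not say whether the wild-type mice were injected, and the arrays carry no probe for Ggpps.

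Each group was 1 array of EVs pooled from 4 animals, so no test between groups was made and no p-value is given. The error given with each value is the SD between replicate spots of that array, carried through to the log2 ratio, and covers neither animals nor cultures nor EV preparations. The 4 arrays shared 1 slide and 1 scan.

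miRNAs are short RNAs that bring Argonaute proteins to messenger RNAs, mostly by pairing of the seed, bases 2 to 8 from the 5′ end. miRNAs with the same seed are grouped into families and can share targets, and miRNAs transcribed from 1 cluster are often made together. Cells release part of their miRNAs in EVs, and hepatocyte EVs are studied as a signal from liver to adipose tissue. Ggpps makes geranylgeranyl pyrophosphate, a lipid that anchors Rab GTPases to membranes, and Rab proteins act in vesicle traffic.

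The sequences that the results turn on are the mature miRNAs of RefSeq (GRCm38.p6), written 5′ to 3′ with the seed in capitals. The let-7 family is shown because all 9 of its measured members exceeded Chow-LKO EV by over 2 spot SDs, as did 48.2% of the miRNAs measured on both arrays. They share 1 seed and differ in the body of the miRNA.
let-7e-5p: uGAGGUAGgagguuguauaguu
let-7f-5p: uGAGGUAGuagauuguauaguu
let-7d-5p: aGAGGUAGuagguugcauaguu
let-7a-5p: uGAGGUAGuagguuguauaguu
miR-98-5p: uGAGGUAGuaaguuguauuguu
let-7i-5p: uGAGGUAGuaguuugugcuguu
let-7c-5p: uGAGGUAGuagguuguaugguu
let-7b-5p: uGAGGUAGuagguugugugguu
let-7g-5p: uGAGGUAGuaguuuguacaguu

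The next set holds those miRNAs of the miR-17-92 cluster and its paralogues that have the seed AAAGUGC, and miR-18a-5p, whose seed differs and whose ratio was the highest of these clusters.
miR-18a-5p: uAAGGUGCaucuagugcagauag
miR-20b-5p: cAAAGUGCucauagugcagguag
miR-20a-5p: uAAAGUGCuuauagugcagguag
miR-17-5p: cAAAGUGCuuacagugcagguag
miR-93-5p: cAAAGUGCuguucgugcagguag
miR-106b-5p: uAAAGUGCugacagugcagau

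The last set holds single miRNAs from either end of the comparison. The last pair, miR-6239 and miR-6351, have the same seed and lay on opposite sides of it by the summed spot signals.
miR-450a-2-3p: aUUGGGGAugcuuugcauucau
miR-5132-3p: cUGAUGUUccccaucccgcag
miR-690: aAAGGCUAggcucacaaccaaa
miR-31-5p: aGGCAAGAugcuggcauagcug
miR-322-5p: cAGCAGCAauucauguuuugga
miR-494-3p: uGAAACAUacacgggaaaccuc
miR-135a-1-3p: uAUAGGGAuuggagccguggcg
miR-2137: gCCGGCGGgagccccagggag
miR-6239: uAGCGUUGgaucacucggug
miR-6351: uAGCGUUGcucagggagcacaug

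A miRNA counted as above background on an array if any of its probes had most of its spots called so by the scanner software. By this measure 493 miRNAs were above background in HFD-EV and 482 did so in Chow-LKO EV, of 1881 on the array, with 497 in Chow-EV and 508 in HFD-LKO EV. In the pair compared, 446 were above background on both arrays, 47 in HFD-EV only, 36 in Chow-LKO EV only and 1352 on neither. Signals are given as relative signal, the summed signal of a miRNA divided by its array's 75th percentile, taken over the 443 miRNAs that passed background on every array. That percentile was 561 for HFD-EV and 614 for Chow-LKO EV. Between 2146 and 2544 of 56430 spots per array were marked as outliers and left out, and none was saturated.

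HFD-EV and Chow-LKO EV had most of their miRNA signal in common and differed in level over a wide range. A ratio or a bound could be given for 526 miRNAs, and 86 of them (16.3%) were at least 2-fold higher in HFD-EV while 50 (9.51%) were at least 2-fold lower. Of the 86, 60 were measured on both arrays and 26 rest on a bound. Of the 50, 43 were measured on both arrays and 7 rest on a bound. Among the 446 miRNAs measured on both, 215 (48.2%) were higher in HFD-EV by over 2 spot SDs and 122 (27.4%) lower, which left 109 within 2 spot SDs. The median log2 ratio was 0.26, with quartiles of -0.33 and 0.68, and the values ran from -2.34 to 3.28. The middle of the distribution moved with the scaling between arrays: the median was 0.0049 with the 75th percentile taken over all miRNAs on the array and -0.41 with the control probes dmr_285 and dmr_31a as the scale, so values below are also set against the median of all miRNAs.

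**Figure D1:**
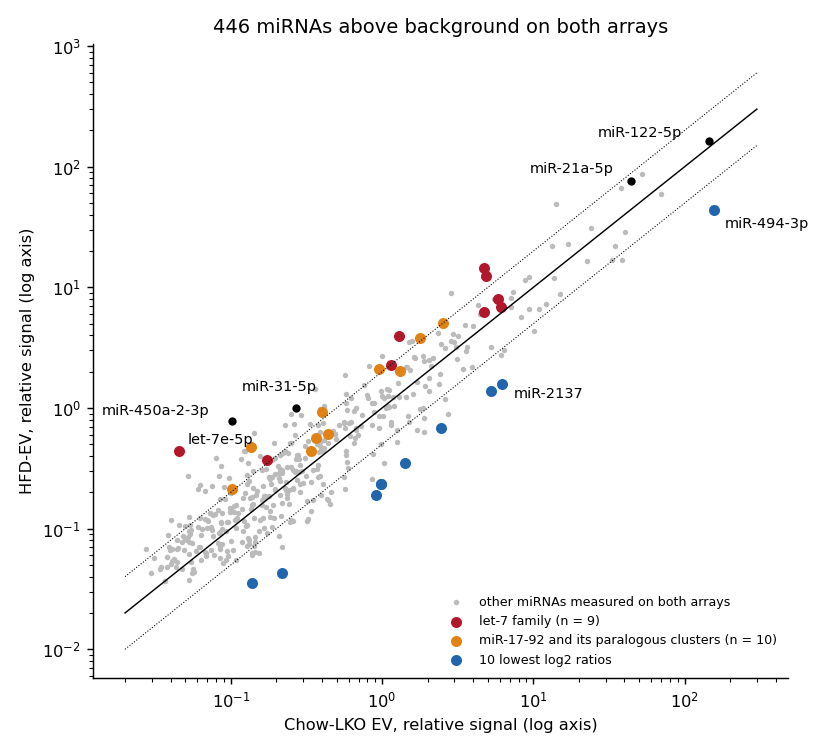
Relative signal of the 446 miRNAs above background on both arrays, with Chow-LKO EV on the x axis and HFD-EV on the y axis, both on log axes. The solid line marks equal signal and the dotted lines 2-fold differences. The let-7 family (red) and the miR-17-92 clusters (orange) lie above the solid line, the 10 lowest ratios (blue) lie below the lower dotted line, and miR-122-5p lies near equal signal.

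This pair had the widest spread of the 6 pairs that the 4 arrays allow. The interquartile range of its log2 ratios was 1.01, while in the other 5 pairs it lay between 0.57 and 0.73. Each of those pairs shares an array with another, so these ranges are a description. miR-122-5p, the most abundant miRNA of hepatocytes and a defining marker of them, had a relative signal of 163 ± 4.61 in HFD-EV, 163 ± 4.14 in Chow-EV, 163 ± 4.10 in HFD-LKO EV and 145 ± 5.19 in Chow-LKO EV. It was 14.0% of the miRNA signal above background in HFD-EV against 12.5% in Chow-LKO EV. Under the main scaling the EVs of all 4 groups thus carried the hepatocyte marker at a like level. The log2 ratio of the pair was 0.16 ± 0.07. It was -0.09 with the percentile over all miRNAs and also below 0 with the control probes as the scale. The study reports higher miR-122 in hepatocytes and EVs on the high-fat diet, by a measure other than these arrays.

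The highest ratio of the comparison was that of let-7e-5p, a member of the let-7 family, which restrains growth and is processed from a precursor blocked by Lin28. It lies on chr17:17830366-17830387, plus strand, within the span of Spaca6. Its relative signal was 0.441 ± 0.0176 in HFD-EV, 0.183 ± 0.0127 in Chow-EV, 0.102 ± 0.0107 in HFD-LKO EV and 0.0453 ± 0.00654 in Chow-LKO EV. The log2 ratio was 3.28 ± 0.22, or 9.74-fold. HFD-EV was the highest and Chow-LKO EV the lowest of the 4 arrays, with Chow-EV and HFD-LKO EV between them. In Chow-LKO EV only 1 of its 2 probes was above background. With the total gene signal that the scanner software gives, the ratio of let-7e-5p turned to -1.50: that software total was 231 for Chow-LKO EV although the spots of its 2 probes there sum to 27.8, whereas it was 69.8 for a spot sum of 248 in HFD-EV.

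miR-450a-2-3p, from a cluster of the X chromosome that also holds miR-322 and miR-503, followed at a log2 ratio of 2.94 ± 0.17. Of 13 miRNAs of that cluster on the array, 9 were below background on both arrays, miR-450a-5p among them. miR-503-5p was above background in HFD-EV only, with a bound of 1.56-fold. miR-351-3p went the other way, above background in Chow-LKO EV only, with a bound of 1.52-fold. miR-450a-2-3p lies on chrX:53048304-53048325, minus strand. The relative signal was 0.784 ± 0.0298 in HFD-EV and 0.412 ± 0.0259 in Chow-EV, and 0.119 ± 0.0115 in HFD-LKO EV and 0.102 ± 0.0112 in Chow-LKO EV. Both wild-type arrays were thus above both knockout arrays. miR-5132-3p (chrX:74023534-74023554, minus strand, within the span of Irak1) had the same order, at 0.271 ± 0.0185, 0.195 ± 0.0161, 0.0550 ± 0.00820 and 0.0523 ± 0.00927 in HFD-EV, Chow-EV, HFD-LKO EV and Chow-LKO EV, and a log2 ratio of 2.37 ± 0.27. miR-6392-3p, within the span of Pnpla3 (chr15:84168334-84168356, plus strand), was at 1.43 ± 0.0685 and 0.818 ± 0.0555 in HFD-EV and Chow-EV against 0.258 ± 0.0148 and 0.362 ± 0.0211 in HFD-LKO EV and Chow-LKO EV. Here HFD-LKO EV, not Chow-LKO EV, was the lowest array, and the log2 ratio of the pair was 1.98 ± 0.11.

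For other miRNAs of the highest 10 the signal stepped down with both factors. miR-690 (chr16:28599940-28599961, minus strand, within the span of Fgf12) had a relative signal of 0.618 ± 0.0134 in HFD-EV, 0.309 ± 0.0162 in Chow-EV, 0.210 ± 0.0112 in HFD-LKO EV and 0.142 ± 0.0125 in Chow-LKO EV, a log2 ratio of 2.12 ± 0.13. miR-31-5p, which acts in cell migration and, in mouse cells, in adipogenic differentiation, lies on chr4:88910614-88910635, minus strand, within the span of the long non-coding RNA Gm49890. It was at 1.01 ± 0.0470, 0.467 ± 0.0202, 0.603 ± 0.0205 and 0.268 ± 0.0123 in HFD-EV, Chow-EV, HFD-LKO EV and Chow-LKO EV, a log2 ratio of 1.91 ± 0.09. In miR-31-5p the HFD-LKO EV array was above Chow-EV, in miR-690 below it. The rest of the 10 were miR-6955-5p (2.27 ± 0.15), miR-682 (1.93 ± 0.20), miR-322-5p (1.88 ± 0.18), which has the seed of the miR-15 and miR-16 family, and miR-770-3p (1.85 ± 0.15), from within the span of Meg3. In all 10 the HFD-EV array was the highest of the 4. The ratios of the dim miRNAs among them were smaller with normexp, a background correction whose offset shrinks dim signals: let-7e-5p was then at 1.45, miR-450a-2-3p at 1.30, miR-5132-3p at 0.97 and miR-682 at 0.67. Those of miR-6392-3p and miR-31-5p stayed at 1.56 and 1.39 or above under each of the 12 alternatives run for them. Scaling on the control probes was not among these 12, and it moves every log2 ratio by -0.67 from the main scaling.

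For either direction the 3 largest bounds were named, and the 3 miRNAs concerned here were above background in HFD-EV but not in Chow-LKO EV. A bound is taken against the dim array's own signal or its lowest signal above background, whichever is higher. It is a lower limit of the ratio only where the own signal is the lower. miR-141-5p, of the miR-200 family (chr6:124717959-124717980, minus strand), was at least 14.0-fold higher, with relative signals of 0.388 ± 0.0135 in HFD-EV, 0.101 ± 0.0143 in Chow-EV, 0.0923 ± 0.0139 in HFD-LKO EV and 0.0275 ± 0.00847 in Chow-LKO EV. For miR-1969 the bound was 6.22-fold. miR-125a-5p was 6.65-fold higher, a plain ratio, since its own signal in Chow-LKO EV was above that array's lowest signal above background (0.0277). Among the alternatives the log2 bound or ratio fell to 0.97 for miR-141-5p, 0.89 for miR-125a-5p and 1.01 for miR-1969. The other arm of the miR-141 hairpin, miR-141-3p, and the other 4 epithelial markers of the miR-200 family were below background on both arrays.

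**Figure D2:**
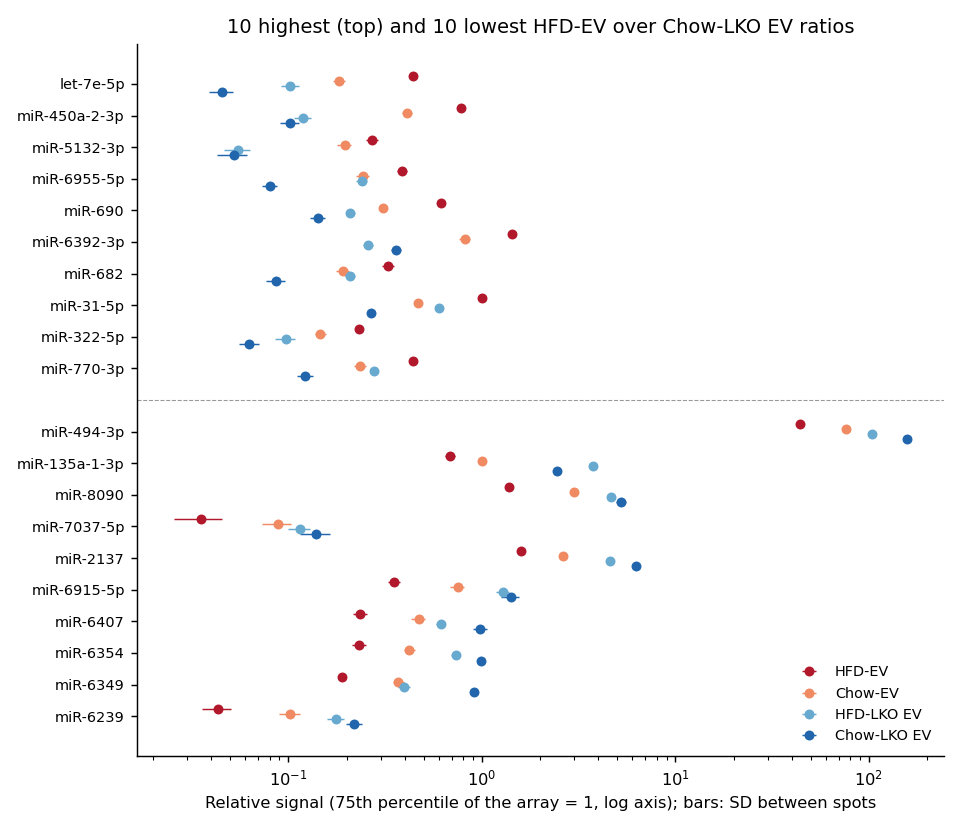
Relative signal (log axis) of the 10 highest and 10 lowest ratios on all 4 arrays, with points for arrays and bars for the SD between spots. In each of the upper 10 rows HFD-EV (dark red) is the rightmost point, and in the lower 10 rows it is the leftmost; Chow-LKO EV (dark blue) is at the other end in 18 of the 20, the exceptions being miR-6392-3p and miR-135a-1-3p.

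At the low end stood miR-494-3p, from the large miRNA cluster of the imprinted Dlk1-Dio3 region (chr12:109715367-109715388, plus strand). Its relative signal was 43.9 ± 1.08 in HFD-EV, 76.2 ± 1.18 in Chow-EV, 104 ± 1.99 in HFD-LKO EV and 157 ± 1.85 in Chow-LKO EV, where it gave the brightest signal of the array. The log2 ratio was -1.84 ± 0.04, and its share of the signal above background was 3.77% in HFD-EV against 13.5% in Chow-LKO EV. The 4 values did not overlap within their spot SDs, with both wild-type arrays below both knockout arrays.

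miR-2137 (chrX:72992113-72992133, plus strand, within the span of Zfp185) was at 1.59 ± 0.0526, 2.63 ± 0.0605, 4.61 ± 0.131 and 6.24 ± 0.118 in HFD-EV, Chow-EV, HFD-LKO EV and Chow-LKO EV, a log2 ratio of -1.98 ± 0.06. miR-8090 had the same order and a log2 ratio of -1.93 ± 0.10. miR-135a-1-3p (chr9:106154179-106154200, plus strand, within the spans of Glyctk and D030055H07Rik) was at 0.685 ± 0.0393 and 1.001 ± 0.0360 in HFD-EV and Chow-EV, and at 3.74 ± 0.0978 and 2.46 ± 0.0681 in HFD-LKO EV and Chow-LKO EV. The high-fat array was thus the higher of the knockout arrays and the lower of the wild-type arrays, and the log2 ratio of the pair was -1.84 ± 0.09.

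The lowest value was that of miR-6239 at -2.34 ± 0.28, from relative signals of 0.0433 ± 0.00733 in HFD-EV against 0.220 ± 0.0206 in Chow-LKO EV. miR-6351, the miRNA that shares its seed, was at 0.380 ± 0.0310 in HFD-EV against 0.117 ± 0.0214 in Chow-LKO EV, a log2 ratio of 1.70 ± 0.29 that turned to -1.35 with the software's total gene signal. By the summed spot signals a shared seed therefore did not go with a shared direction here, while with the total gene signal both were below 0. The signal of miR-6239 in HFD-EV was near that array's lowest signal above background (0.0355). The others of the lowest 10 were miR-6349 (-2.27 ± 0.09), miR-6354 (-2.09 ± 0.14), miR-6407 (-2.06 ± 0.16), miR-6915-5p (-2.005 ± 0.19) and miR-7037-5p (-1.97 ± 0.47). With normexp the dim miR-6239 was at -0.71 and miR-7037-5p at -0.45. Of miRNAs above background in Chow-LKO EV only, the signal of miR-3057-5p in HFD-EV was lower by a bound of 6.13-fold. For miR-6938-5p the bound was 4.56-fold and for miR-878-3p 2.92-fold. At their weakest among the alternatives, the log2 bounds or ratios of these were -0.76, -0.48 and -0.36 in turn.

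The log2 ratio of the pair is the sum of a mean diet step (high-fat over chow, averaged over the genotypes) and a mean genotype step (wild-type over knockout, averaged over the diets), which places each miRNA along the factors that the pair mixes. The diet step minus the genotype step equals the log2 ratio of HFD-LKO EV over Chow-EV. For a given sign of the pair's ratio, which step is the larger thus rests on those single arrays alone. The split was made under the main scaling only. In the 443 miRNAs that passed background on every array the median diet step was 0.09 and the median genotype step 0.10. Among the 60 measured miRNAs at least 2-fold higher in HFD-EV, the diet step was the larger in 29 and the genotype step in 31, with medians of 0.69 and 0.71. Among the 43 at least 2-fold lower, the genotype step was the larger in 32 and the diet step in 11, with medians of -0.93 and -0.57. Over all 443 the genotype step was the larger in 231 and the diet step in 212, so that the higher miRNAs were divided near that share, and the lower miRNAs held more with a larger genotype step. Both Chow-EV and HFD-LKO EV lay between HFD-EV and Chow-LKO EV in 222 of the 443 miRNAs (50.1%), in 57 of the 60 and in 35 of the 43, where the choice of the largest ratios favours that order.

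The measured members of the let-7 family all lay on the side of HFD-EV. Of its 10 miRNAs on the array, let-7k was below background on both arrays. The other 9 were higher in HFD-EV by over 2 spot SDs (48.2% of all measured), 5 of them at least 2-fold (60 of 446). Their median log2 ratio was 1.09, or 0.83 above the median of all miRNAs, and let-7g-5p, the lowest at 0.18 ± 0.06, turned to -0.071 with the percentile over all miRNAs. With the control probes as the scale 6 of the 9 stayed above 0, and let-7b-5p, let-7c-5p and let-7g-5p were below it. The family gave 4.73% of the signal above background in HFD-EV against 2.49% in Chow-LKO EV, against 3.34% in Chow-EV and 3.25% in HFD-LKO EV.

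Within the family the members fell into groups by level of difference. let-7f-5p was at 14.6 ± 0.585 in HFD-EV, 9.62 ± 0.402 in Chow-EV, 7.01 ± 0.196 in HFD-LKO EV and 4.68 ± 0.119 in Chow-LKO EV, a log2 ratio of 1.64 ± 0.07. let-7d-5p (1.62 ± 0.07) and let-7a-5p (1.35 ± 0.04) had the same order of arrays, with no overlap of spot SDs between neighbours. let-7e-5p, let-7f-5p, let-7d-5p, let-7a-5p and miR-98-5p (1.09 ± 0.11) had the larger part of their ratio in the genotype step. let-7i-5p (0.97 ± 0.10), let-7c-5p (0.44 ± 0.08), let-7b-5p (0.42 ± 0.05) and let-7g-5p had the larger part in the diet step. For these, that is the same fact as HFD-LKO EV lying above Chow-EV. let-7g-5p was at 6.91 ± 0.181 in HFD-EV, 6.22 ± 0.193 in Chow-EV, 7.28 ± 0.207 in HFD-LKO EV and 6.09 ± 0.218 in Chow-LKO EV, so that the high-fat arrays overlapped within spot SDs, as did the chow arrays.

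Set against let-7e-5p, with positions counted from 1 at the 5′ end, let-7a-5p differs only by G9U. let-7c-5p differs by G9U and A19G, let-7b-5p by G9U, A17G and A19G, let-7f-5p by G9U and G12A, and let-7g-5p by G9U, G12U and U18C. Members so alike can share signal on probes, and cross-hybridisation between them was not tested. The array values of let-7f-5p and let-7a-5p differ from those of let-7c-5p and let-7b-5p in their ratio although let-7a-5p and let-7c-5p differ by 1 base.

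**Figure D3:**
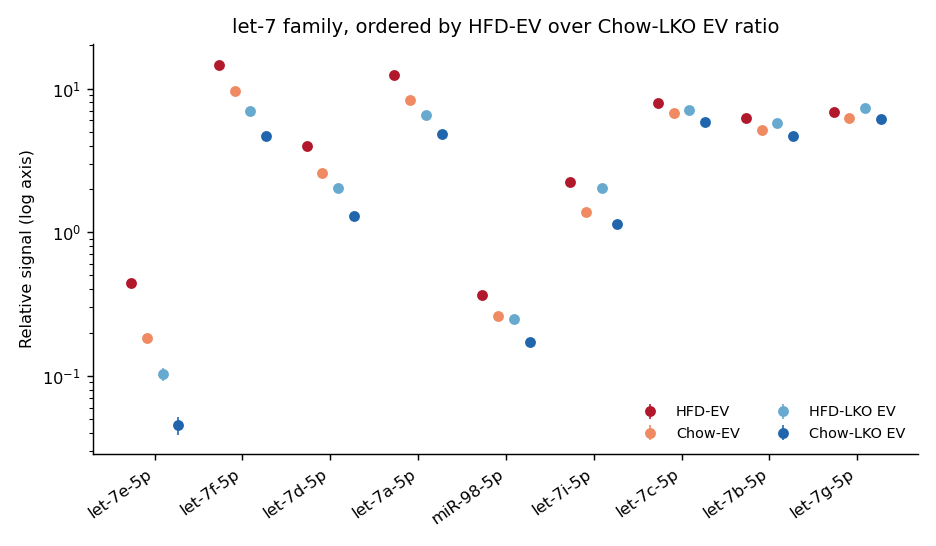
Relative signal (log axis) of the 9 measured let-7 miRNAs on the 4 arrays, with bars for the SD between spots, ordered from let-7e-5p, with the highest ratio of HFD-EV over Chow-LKO EV, to let-7g-5p with the lowest. The 4 arrays step down in 1 order from let-7e-5p to miR-98-5p, and HFD-LKO EV is above Chow-EV from let-7i-5p to let-7g-5p.

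let-7e-5p is encoded with miR-99b and miR-125a in 1 cluster, and their 5p arms shared its high ratio. miR-99b-5p was at 0.123 ± 0.0119 in HFD-EV, 0.0597 ± 0.00852 in Chow-EV, 0.0474 ± 0.00751 in HFD-LKO EV and 0.0163 ± 0.00685 in Chow-LKO EV, at least 4.44-fold higher in HFD-EV. miR-125a-5p was at 0.203 ± 0.0151, 0.142 ± 0.00981, 0.0685 ± 0.00703 and 0.0305 ± 0.00591 on the same arrays. The lowest log2 bound or ratio among the alternatives was 0.60 for miR-99b-5p and 0.89 for miR-125a-5p. The 3p arms of these hairpins did not show such ratios: miR-99b-3p was at 0.12 ± 0.15, and miR-125a-3p at 0.37 ± 0.06. The 4 probes of miR-125a-3p disagreed, with log2 ratios of -1.01, -0.69, -0.58 and 0.79.

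The relatives of these miRNAs on other chromosomes, miR-99a-5p, miR-100-5p and miR-125b-5p, had the larger part of their ratio in the genotype step. miR-99a-5p was at 0.728 ± 0.0275 in HFD-EV, 0.738 ± 0.0208 in Chow-EV, 0.385 ± 0.0155 in HFD-LKO EV and 0.379 ± 0.0181 in Chow-LKO EV. The arrays of 1 genotype overlapped within spot SDs and those of different genotypes did not, which gave a log2 ratio of 0.94 ± 0.09 with a mean diet step of 0.00. miR-100-5p likewise had both wild-type arrays above both knockout arrays, at 0.88 ± 0.22. miR-125b-5p was at 0.33 ± 0.10, the sum of a genotype step of 0.60 and a diet step of -0.27.

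The miR-17-92 cluster and its paralogues, which promote proliferation and are driven by Myc and E2F in many cells, had their ratio mainly in the diet step. Of 12 miRNAs on the array, 2 were below background. All 10 measured were higher in HFD-EV by over 2 spot SDs (48.2% of all measured), 6 of them at least 2-fold (60 of 446). The median log2 ratio was 1.04, or 0.78 above that of all miRNAs, and it was 0.37 with the control probes as the scale, where 6 of the 10 stayed above 0. In all 10, against 142 of all 443 (32.1%), both high-fat arrays were above both chow arrays. The median diet step was 0.80 and the median genotype step 0.23.

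miR-18a-5p, from the chromosome 14 cluster, had the highest ratio at 1.80 ± 0.15. Its relative signal was 0.471 ± 0.0148 in HFD-EV, 0.195 ± 0.0123 in Chow-EV, 0.402 ± 0.0179 in HFD-LKO EV and 0.135 ± 0.0134 in Chow-LKO EV. miR-20a-5p, of the same cluster, was at 3.82 ± 0.0968, 2.35 ± 0.0400, 3.45 ± 0.0755 and 1.78 ± 0.0569 on these arrays, a log2 ratio of 1.11 ± 0.06. The 5 miRNAs measured of the chromosome 14 cluster with a single position, miR-17-3p among them, lay between 1.08 and 1.80. miR-19b-3p and miR-92a-3p, encoded on both chromosome 14 and chromosome X, were at 1.002 ± 0.08 and 0.63 ± 0.08. The 3 of the chromosome 5 paralogue were miR-93-5p (0.63 ± 0.09), miR-25-3p (0.49 ± 0.11) and miR-106b-5p (0.37 ± 0.08). They lay below the 5 with a single position, but miR-93-5p was level with miR-92a-3p. miR-106b-5p was highest in HFD-LKO EV at 0.480 ± 0.0156 against 0.438 ± 0.0167 in HFD-EV. The seed AAAGUGC joins members of both clusters, so among the miRNAs with a single position cluster and seed grouped the ratios differently.

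Other families divided. In the clusters of miR-23, miR-24 and miR-27 all 5 were higher by over 2 spot SDs (48.2% of all measured), with a median of 0.59. They ran from miR-23b-3p at 1.71 ± 0.07 to miR-23a-3p at 0.23 ± 0.06, which turned to -0.026 with the percentile over all miRNAs. In the miR-29 family, which restrains collagen synthesis, all 3 were higher by over 2 spot SDs (48.2% of all measured). miR-29b-3p was at 1.23 ± 0.06, and miR-29a-3p and miR-29c-3p were at 0.39 ± 0.08 and 0.45 ± 0.05. The latter pair fell below 0 with the control probes as the scale. miR-103-3p and miR-107-3p, which lower insulin sensitivity in mouse liver and fat, were at 1.82 ± 0.12 and 1.04 ± 0.06. miR-26a-5p and miR-26b-5p were at 1.19 ± 0.07 and 0.50 ± 0.05.

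The miR-30 family lay on the other side. miR-30b-5p, miR-30c-5p and miR-30d-5p were lower in HFD-EV by over 2 spot SDs, at -0.24 ± 0.06, -0.30 ± 0.08 and -0.25 ± 0.06, while miR-30e-5p was higher at 0.35 ± 0.06 and miR-30a-5p was within them at -0.04 ± 0.05. The median of the 5 was -0.24, or 0.50 below that of all miRNAs. The 2 members of the miR-101 family were split, with miR-101a-3p at 0.25 ± 0.07, which turned to -0.0057 with the percentile over all miRNAs, and miR-101b-3p at -1.09 ± 0.12. In the miR-15 and miR-16 family 5 of 6 measured members were higher by over 2 spot SDs (48.2% of all measured), with a median of 0.63. Among them miR-195a-5p turned from 0.73 to -1.57 with the software's total gene signal.

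**Figure D4:**
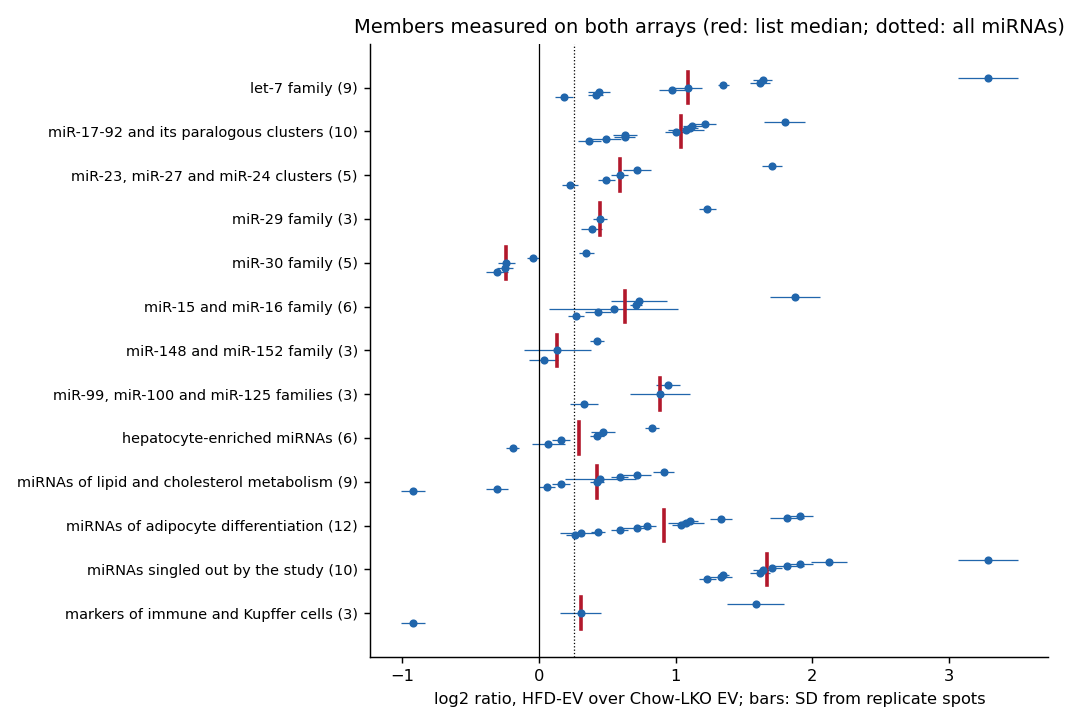
Log2 ratio of HFD-EV over Chow-LKO EV for the measured members of each list with at least 3 of them, with bars for the SD carried from replicate spots, red marks for list medians and a dotted line at the median of all miRNAs, 0.26. The let-7, miR-17-92 and adipocyte differentiation lists lie wholly above 0. So do the lists of miR-23, miR-27 and miR-24, of miR-29, of miR-15 and miR-16, and of miR-148 and miR-152. The same holds for the list of miR-99, miR-100 and miR-125 and for that singled out by the study. The miR-30 family lies mostly below 0.

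Hepatocyte-enriched miRNAs stayed near the median of all miRNAs. Their list had 6 of 7 measured, with a median of 0.29, which was 0.04 above that of all miRNAs and was -0.38 with the control probes as the scale. miR-194-5p was the highest at 0.83 ± 0.05, from 4.17 ± 0.0694 in HFD-EV, 3.75 ± 0.111 in Chow-EV, 2.67 ± 0.0463 in HFD-LKO EV and 2.35 ± 0.0712 in Chow-LKO EV, with both wild-type arrays above both knockout arrays. miR-192-5p, whose hairpin lies beside a hairpin of miR-194, was at 12.1 ± 0.146, 13.3 ± 0.514, 12.5 ± 0.530 and 13.7 ± 0.424 on the same arrays, a log2 ratio of -0.19 ± 0.05. These genomic neighbours differed in sign. miR-148a-3p was at 0.43 ± 0.05, miR-122-3p at 0.47 ± 0.09 and miR-802-5p at 0.07 ± 0.12.

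Among miRNAs of lipid and cholesterol metabolism 9 of 13 were measured on both arrays, 5 higher and 2 lower by over 2 spot SDs (48.2% and 27.4% over all measured miRNAs). Their median was 0.43, and none of the 9 had a ratio of 2-fold. miR-130b-3p and miR-128-3p, above background in Chow-LKO EV only, had bounds of 2.34-fold and 1.22-fold lower in HFD-EV. miR-34a-5p, which is induced by p53 and targets Sirt1, was at 1.09 ± 0.0347 in HFD-EV and 1.22 ± 0.0374 in HFD-LKO EV, and at 0.592 ± 0.0175 in Chow-EV and 0.579 ± 0.0249 in Chow-LKO EV. Both high-fat arrays were above both chow arrays and the genotype step was -0.06, which gave a log2 ratio of 0.91 ± 0.08. miR-223-3p was the lowest of the 9 at -0.92 ± 0.09. Both arms of miR-33, which lies in an intron of Srebf2, were below background.

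Of 20 miRNAs of adipocyte differentiation 12 were measured on both arrays, and these 12 were higher in HFD-EV by over 2 spot SDs. Of them 6 were at least 2-fold higher, against 48.2% and 60 of 446 over all measured miRNAs. miR-130b-3p, above background in Chow-LKO EV only, went the other way, with a bound of 2.34-fold lower in HFD-EV. The median of the 12 was 0.91, or 0.66 above that of all miRNAs. With the control probes as the scale it was 0.24, with miR-27b-3p, miR-130a-3p, miR-155-5p and miR-365-3p below 0. The diet step was the larger in 10 of the 12, and in 212 of all 443. The list shares miR-103-3p, miR-107-3p, miR-17-5p, miR-20a-5p, miR-27a-3p and miR-27b-3p with the families above. It holds miRNAs that promote and miRNAs that restrain adipogenesis, and its count says nothing of which prevailed.

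miR-210-3p, the miRNA induced by hypoxia-inducible factor, had a relative signal of 1.04 ± 0.0308 in HFD-EV, 0.374 ± 0.0193 in Chow-EV, 0.703 ± 0.0291 in HFD-LKO EV and 0.415 ± 0.0188 in Chow-LKO EV. The high-fat arrays were above the chow arrays, and the chow arrays of the genotypes were close, so that the log2 ratio of 1.33 ± 0.08 lay in a diet step of 1.12 and a genotype step of 0.21. The 10 miRNAs that the study singled out by fold change (let-7e-5p, miR-690, miR-31-5p, miR-103-3p, miR-23b-3p, let-7f-5p, let-7d-5p, let-7a-5p, miR-210-3p and miR-29b-3p) were all at least 2-fold higher in HFD-EV, with a median of 1.67. The study chose that list on these arrays and presents it as HFD-EV against Chow-EV. Its methods screened for miRNAs whose ratios to Chow-EV were opposite in HFD-EV and Chow-LKO EV. Such a choice favours a wide ratio of the pair, so this count is no independent evidence of its direction. In 8 of the 10 the genotype step was the larger, as it was in 231 of all 443.

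Markers of other cell types were mixed or near background. Of the 5 immune and Kupffer cell markers, 3 passed background on both arrays: miR-142a-3p, found across blood cell types, was at 1.58 ± 0.21, miR-223-3p, of myeloid cells, at -0.92 ± 0.09, and miR-155-5p, induced in activated macrophages, at 0.31 ± 0.15. miR-142a-3p stepped from 0.226 ± 0.0132 in HFD-EV through 0.150 ± 0.0146 in HFD-LKO EV and 0.121 ± 0.0128 in Chow-EV to 0.0753 ± 0.0101 in Chow-LKO EV. miR-223-3p was higher in knockout EVs, at 0.522 ± 0.0246 in HFD-LKO EV and 0.595 ± 0.0252 in Chow-LKO EV against 0.315 ± 0.0139 in HFD-EV and 0.353 ± 0.0145 in Chow-EV. The summed relative signal of the list was 0.953 in HFD-EV, 0.746 in Chow-EV, 1.26 in HFD-LKO EV and 1.01 in Chow-LKO EV, and miR-142a-5p and miR-150-5p were below background.

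The immune-response miRNA miR-146a-5p went with genotype as miR-223-3p did, at 0.356 ± 0.0184 in HFD-EV and 0.280 ± 0.0143 in Chow-EV against 0.723 ± 0.0244 in HFD-LKO EV and 0.587 ± 0.0237 in Chow-LKO EV, a log2 ratio of -0.72 ± 0.09. The erythroid markers miR-451a and miR-486a-5p were within 2 spot SDs, at -0.34 ± 0.21 and -0.19 ± 0.28, and both arms of miR-144 were below background. In miR-451a both wild-type arrays were nevertheless below both knockout arrays, with a genotype step of -0.96 and an opposite diet step of 0.62. For miR-486a-5p the steps were -0.11 and -0.08. Of the endothelial markers miR-126a-3p was at 0.52 ± 0.06 and miR-126a-5p at -0.07 ± 0.22. Of 5 mesenchymal markers only miR-199a-3p was measured, at -0.77 ± 0.28, and the 5 epithelial and 4 muscle markers were below background on both arrays. The part of other cell types in the ratios above was not tested.

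The ratio also moved with base composition. Mature sequences were matched for 378 of the 446 measured miRNAs. The median log2 ratio was 0.57 for the 33 miRNAs with a GC content under 40%, 0.43 for 73 between 40% and 50%, 0.22 for 122 between 50% and 60%, 0.02 for 108 between 60% and 70%, and -0.20 for the 42 at 70% or more. Over these miRNAs, which share 2 arrays and are not replicates, Pearson's r of GC content and log2 ratio was -0.26 and Spearman's rank correlation -0.29. The 9 let-7 members had a GC content of 31.8% to 45.5%, and 7 of the 10 miR-17-92 members were under 50%. The median was 1.09 over all 9 let-7 members and 1.04 over all 10 miR-17-92 members, and 0.57 and 0.43 in the bins under 50%. These are not separate sets, since those bins hold the members under 50%. miR-93-5p, miR-92a-3p and miR-25-3p, counted in the 1.04, lie in the bin between 50% and 60%. The part of base composition in these ratios was not tested. Over 4 bins of near equal size by mean signal the medians lay between 0.22 and 0.30, without such a gradient.

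**Figure D5:**
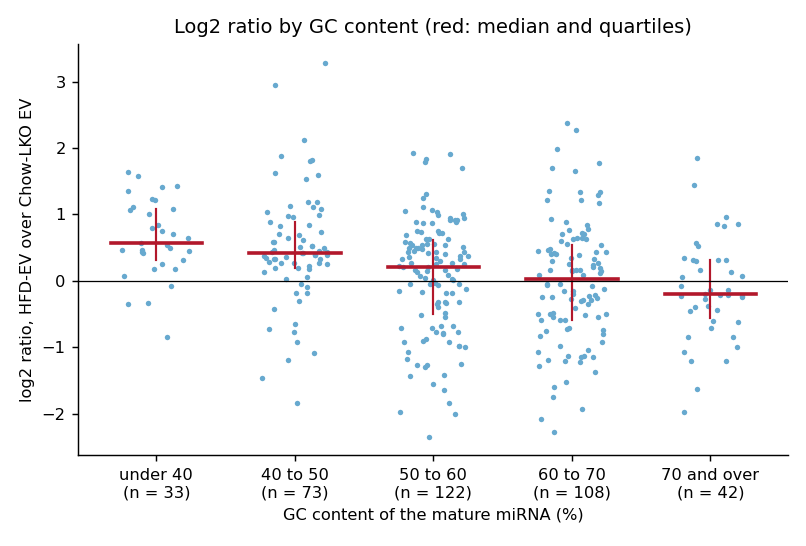
Log2 ratio of HFD-EV over Chow-LKO EV for 378 miRNAs, 1 point each, by GC content of the mature sequence, with red marks for medians and quartiles. The medians step down from 0.57 in the bin under 40% to -0.20 in the bin of 70% and over, with wide overlap between bins.

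The brightest signals were spread over either direction. miR-21a-5p, a miRNA raised in many injured and proliferating tissues, was at 76.8 ± 1.88 in HFD-EV, 59.1 ± 1.73 in Chow-EV, 63.4 ± 1.69 in HFD-LKO EV and 44.4 ± 1.70 in Chow-LKO EV, a log2 ratio of 0.79 ± 0.07. miR-7042-5p was at -0.24 ± 0.03. miR-8117 was at 0.73 ± 0.03, but its 2 probes gave 0.05 and 1.09. Such disagreement was rare: of 347 miRNAs with at least 2 probes above background on both arrays, the log2 ratios of the probes differed by more than 1 in 8, and the median range was 0.15.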

How the data were processed

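EV RNA of the 4 groups was hybridised to 1 Agilent array each. The authors deposited spot intensity values from Agilent Feature Extraction 10.7.1.1, per the file headers, with background subtracted and no scaling between arrays. The deposited log2 values of the comparison tables are normalised signals, for which the methods name U6 as the reference, although no probe named U6 was found in the files; they served only as an alternative. The ratio or fold-change columns made by the authors were not used; that of the high-fat wild-type table holds HFD-EV over Chow-LKO EV and not over Chow-EV. The HFD-EV column of the deposited series table departs from that array's own signal and was left out.

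Control and outlier-marked spots were left out, spots were averaged per probe (4 to 30 of them), and the probe means were summed per miRNA (1 to 4) and divided by the array's 75th percentile over the 443 miRNAs that passed background on every array. The number of arrays limits the precision, and depth does not apply. No test was made, with 1 array a group; differences of at least 2-fold and of more than 2 spot SDs were counted. Named were the 10 highest and 10 lowest log2 ratios past 2 spot SDs, the 3 largest bounds in either direction, members of 29 lists, the 5 brightest miRNAs, the miRNAs the study singled out, and miRNAs sharing a seed or cluster with these. The miRNAs and lists were chosen with earlier results of these data known. Alternatives covered scaling, background correction (normexp, offset 50), probe summary, outlier spots, filters, detection calls, the authors' log2 values and a 1.5-fold rule; scaling on control probes was added after the data were seen. The steps were tested on simulated data. Sequences and positions were matched by name to RefSeq GRCm38.p6, with 98 of 109 named miRNAs matched, and whether a miRNA lies in an exon or intron of its host gene was not determined. Python 3.11.15, numpy 2.4.6, pandas 2.3.3, matplotlib 3.10.9, R 4.3.3 and limma 3.58.1 were used.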

Additional observations from a re-analysis of the deposited data

How the results depend on the processing

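No paired analysis was possible because each group is a single array and the labels give no replicate numbers, and for the same reason no array could be left out. The 86 miRNAs at least 2-fold higher and the 50 at least 2-fold lower became 165 and 101 at a 1.5-fold rule, 24 and 18 with normexp, whose offset shrinks the ratios of dim miRNAs, 23 and 25 in the authors' log2 values, where no bound was formed, and 55 and 77 with the 75th percentile over all miRNAs of the array, which lowers every log2 ratio by the same amount. With a signal over 30 on both arrays the higher count was 56. Scaling on the control probes dmr_285 and dmr_31a, chosen after seeing the data, moved every log2 ratio by -0.67 from the main scaling (-0.25 for the percentile over all miRNAs) and gave 26 higher and 139 lower. Under this scaling the median over all miRNAs reversed to -0.41, that of hepatocyte-enriched miRNAs to -0.38 and that of immune and Kupffer cell markers to -0.36, while the let-7 median was 0.42 and the miR-17-92 median 0.37.

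The median over all measured miRNAs was 0.13 without scaling, 0.0049 with the percentile over all miRNAs, 0.079 with quantile normalisation and 0.037 in the authors' values. The let-7 median was 0.96, 0.83, 0.89 and 0.86 under these in turn and 0.86 with normexp. The miR-17-92 median was 0.91, 0.78, 0.87 and 0.69 in the same order, 0.75 with normexp and 0.82 without a filter. The hepatocyte-enriched median was 0.16 without scaling, 0.041 with the percentile over all miRNAs, 0.38 with the total gene signal and 0.36 without a filter. The median of immune and Kupffer cell markers was 0.054 with the percentile over all miRNAs, 0.031 with quantile normalisation and 0.049 in the authors' values.

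Of single values and other lists, the total gene signal of the software reversed let-7e-5p to -1.50, miR-195a-5p to -1.57 and miR-6351 to -1.35; for 36 of 446 miRNAs in Chow-LKO EV and 25 in HFD-EV that total was more than 3 times its usual share of the spot sum. The percentile over all miRNAs reversed let-7g-5p to -0.071, miR-23a-3p to -0.026, miR-101a-3p to -0.0057 and miR-122-5p to -0.089. The miR-130 and miR-301 median was -0.48 with the detection call of the software, which adds dim members, and that of mesenchymal markers 0.36 without a filter. These 9 are sign changes of values past 2 spot SDs. Another 8 miRNAs and 3 list medians that lay within 2 spot SDs of 0 also changed sign, in 25 values, among them miR-497a-5p, which was at 0.55 ± 0.47 and at -1.76 with the total gene signal. Of the other 1496 values, these included, 911 moved by less than the spot SD and 585 by more; the cause was not tested. In the authors' values miR-450a-2-3p was at 1.07, miR-5132-3p at 1.06 and let-7e-5p at 1.76.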

Other observations

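Arms of 1 hairpin mostly lay on the same side. Both arms were above background on both arrays for 20 hairpins, and their log2 ratios had the same sign in 15 and opposite signs in 5, with a median difference of 0.36 in size. In 6 hairpins the arms were more than 1 apart. miR-345-5p was at 0.92 ± 0.11 and miR-345-3p at -0.91 ± 0.30, miR-652-5p at -0.51 ± 0.10 and miR-652-3p at 0.74 ± 0.20, and miR-5132-5p at 0.86 ± 0.17 beside 2.37 ± 0.27 for its 3p arm. miR-31-3p, the less abundant arm in most tissues, was at 0.99 ± 0.22 beside 1.91 ± 0.09 for miR-31-5p.

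miRNAs numbered up to 500, which were mostly described early and in many tissues, had a median log2 ratio of 0.37 over 150 measured. The 168 with numbers above 6000 had a median of 0.12. Before scaling, the control probes dmr_285 and dmr_31a had log2 ratios of HFD-EV over Chow-LKO EV of 0.58 and 0.50, dmr_3 and dmr_6 0.028 and 0.13, hur_2 -0.99 and hur_6 2.09. miR-7005-5p, among the 10 brightest signals, was at 48.8 ± 1.65 in HFD-EV, 23.2 ± 0.550 in Chow-EV, 26.1 ± 0.482 in HFD-LKO EV and 14.2 ± 0.216 in Chow-LKO EV, a log2 ratio of 1.78 ± 0.05.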
